A study of Mus musculus with 6 samples.

Results

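The genes described here encode the protein subunits of the cytosolic ribosome. Members were the protein-coding genes of the table whose symbols followed the Rpl and Rps nomenclature, together with Rpsa, Rplp0, Rplp1 and Rplp2, and whose read counts summed to at least 60 over all libraries. Of 83 genes with such a name among the 54532 genes of the table, 81 were retained, 49 for the large subunit and 32 for the small subunit. Beyond their names, members were selected on the summed count alone. Rpl10l, with 0 reads, and Rpl39l, with 6 reads, fell below the limit, while Rpl3l, with 105 reads, and Rpl24, with 168 reads, were the members closest to it.

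RNA-seq was performed on perfused whole lungs of untreated C57BL/6J mice at 2 months of age, with 3 wild-type (WT) libraries and 3 libraries from mice lacking isthmin 1 (ISM1-/-, labelled ISM1-KO). The comparison asks how the baseline lung transcriptome differs in the absence of ISM1, a secreted protein of the lung. The WT animals came from a vendor, whereas the ISM1-/- line was bred in-house, so that the effects of genotype and of colony cannot be told apart. Total counts ranged from 37606133 to 42345042 per library. Ism1 itself, the targeted gene, was counted 3098, 3215 and 2975 times in the WT libraries and 2784, 2508 and 2953 times in the libraries labelled ISM1-/-. The fitted difference was -0.19 ± 0.071 on the log2 scale (± standard error here and below, adjusted p = 0.217 in edgeR's quasi-likelihood test), and the adjusted p was 0.0356 without ISM1-/- replicate 3. The position of the deletion within the gene was not analysed here.

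Cytosolic ribosomes consist of a small subunit, which decodes the mRNA, and a large subunit, which forms the peptide bonds, and each carries its own set of proteins on a scaffold of ribosomal RNA. In mammals, mRNAs of ribosomal proteins typically begin with a cytosine followed by an uninterrupted stretch of pyrimidines, the 5′ terminal oligopyrimidine (TOP) motif, through which mTOR signalling controls their translation. Their mRNAs are among the most abundant of any tissue, and lymphocytes carry a particularly large fraction of their mRNA in this class.

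The sequence around the start site, where a TOP motif would lie, is shown for the 4 members whose WT and ISM1-/- values did not overlap (Rps6, Rpl19, Rpl13a and Rps10) and for 2 pairs of a core gene and its paralog that are compared below. Each sequence holds the 15 bases before the RefSeq start site and 15 bases from it onwards, 5′ to 3′ on the transcribed strand, with the longest run of pyrimidines in capitals (GRCm38.p6).
Rps6, chr4:86857353-86857382, minus strand: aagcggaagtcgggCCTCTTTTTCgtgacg
Rpl19, chr11:98026695-98026724, plus strand: tgaccaaacgCCCTCactgcgcatgtgcgc
Rpl13a, chr7:45128731-45128760, minus strand: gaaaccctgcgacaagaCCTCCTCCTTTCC
Rps10, chr17:27635230-27635259, minus strand: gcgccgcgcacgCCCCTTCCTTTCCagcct
Rps27, chr3:90213634-90213663, minus strand: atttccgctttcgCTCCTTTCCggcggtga
Rps27l, chr9:66946071-66946100, plus strand: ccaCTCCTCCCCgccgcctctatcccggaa
Rpl22, chr4:152325711-152325740, plus strand: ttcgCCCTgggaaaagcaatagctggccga
Rpl22l1, chr3:28805493-28805522, plus strand: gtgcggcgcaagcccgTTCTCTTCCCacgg

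Of these windows, those of Rps6, Rpl13a, Rps10, Rps27, Rps27l and Rpl22l1 contained a run of at least 8 pyrimidines. The runs of Rpl19 and Rpl22 were 5 and 4 bases long. Runs were counted anywhere in the window. Those of Rps27l, Rpl19 and Rpl22 lay wholly before the RefSeq start site, outside the annotated transcript. The RefSeq start of Rps10 lay 1425 bases from the 5′ end of the gene in the count table. For Rpl22l1 and Rps6 this distance was 72 and 45 bases. RefSeq start windows were matched for 61 members. A run of at least 8 pyrimidines was present in the 30 bases of 25 members (41.0%), compared with 11.7% of 16494 protein-coding genes. The median longest run was 6 against 4 bases. Where the RefSeq start lay within 100 bases of that in the count table, the shares were 34.8% of 46 members and 11.9% of 12036 genes. The base at the annotated RefSeq start was a cytosine in 34.4% of members and in 14.0% of all genes. Where transcription begins in these lungs was not measured. In the 300 bases from 250 before to 50 after the start, searched on both strands, CCGGAAG, an ETS-family motif, was found in 39.3% of members and 12.3% of all genes. The SP1 motif GGGCGG was present in 60.7% and 48.2%, the YY1 motif AAGATGGC in 8.20% and 3.27%, the E-box CACGTG in 8.20% and 8.11%, and TATAAA in 9.84% and 12.9%. None of these motifs contains another, and a match describes the letters of the window alone.

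Most members were expressed at a high and similar level in the lung. Levels between genes are given as FPKM (fragments scaled to gene length and to sequencing depth). Mean FPKM over the 6 libraries was 374 at the median member, and 70 of the 81 members ranked among the 500 genes with the highest FPKM. The highest levels were those of Rplp1, a protein of the acidic stalk of the large subunit (805 FPKM), Rpl10, which sits near the peptidyl transferase centre (730.3), Rps15 (713), Rplp0, the base of the stalk (668), and Rpl23a, near the exit of the nascent chain (665). Rplp1 was at 740.2, 832 and 841 FPKM in WT and at 852, 771 and 797 in ISM1-/- lungs, and Rpl10 was at 729, 725 and 761 in WT and at 744, 697 and 725 in ISM1-/- lungs. Both genes overlapped between the genotypes. Along the order of mean FPKM, the ranges over the 6 libraries overlapped in 73 of 80 neighbouring pairs, so that the order is not resolved for most neighbours.

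**Figure D1:**
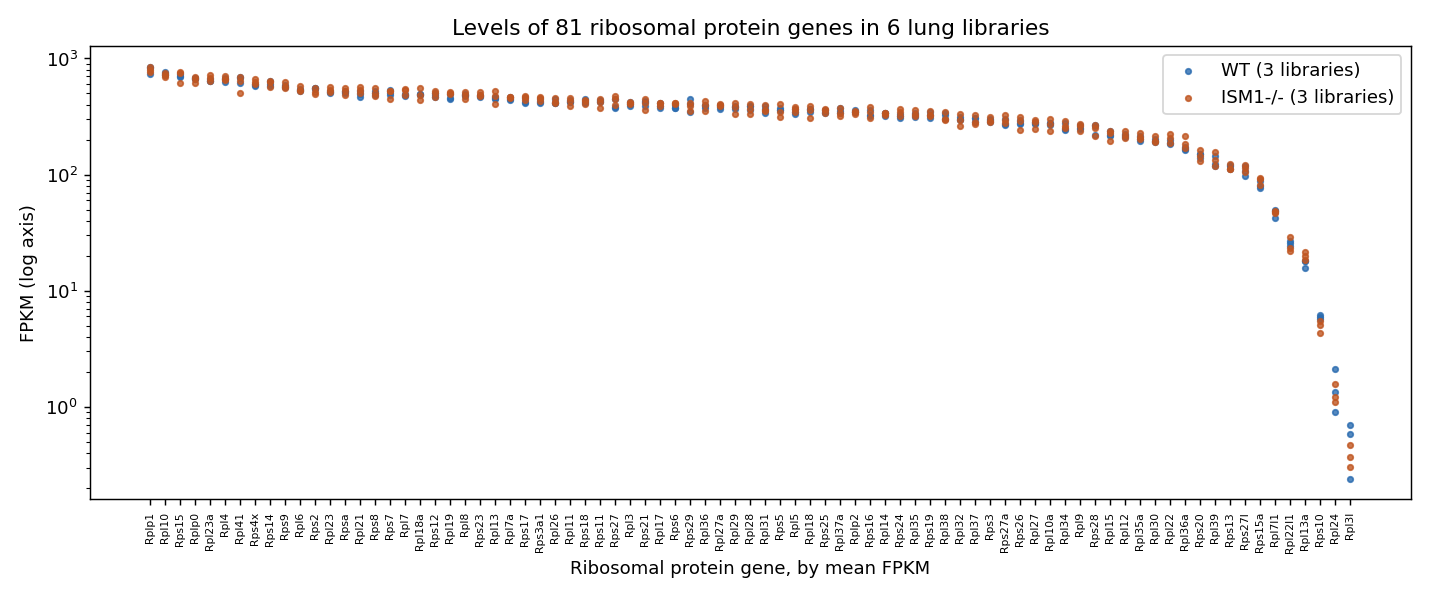
FPKM (log axis) of each of the 81 ribosomal protein genes, ordered by mean FPKM, with 1 point per library in WT and ISM1-/- lungs. Most genes lie within a narrow band around the median of 374 FPKM, and Rpl13a, Rps10, Rpl24 and Rpl3l form the low end.

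The low end held Rpl22l1 (25.2 FPKM), Rpl13a (18.6), Rps10 (5.45), Rpl24 (1.37) and Rpl3l (0.444). Rpl3l, a paralog of Rpl3 known from heart and skeletal muscle, was counted 22, 10 and 27 times in WT and 20, 14 and 12 times in ISM1-/- lungs. Its counts overlapped between the genotypes, and heart muscle markers, summed over 9 genes, were at 1663 CPM (counts scaled to library size) in WT replicate 1 and between 321 and 669.7 CPM in the other libraries. Rpl24, whose product bridges the ribosomal subunits, was counted 41, 29 and 18 times in WT and 24, 24 and 32 times in ISM1-/- lungs, far below most other large-subunit genes. Most ribosomal proteins occur in equal numbers in a ribosome, and the low counts of Rpl24, Rps10 and Rpl13a stood apart from those of the other core genes. How fragments that match several places or several genes were counted is not given in the sources used here, and its part in these levels was not tested. Ribosomal protein pseudogenes are numerous and nearly identical to their parents. The table held 394 rows of such pseudogenes, up to 24 for 1 parent (Rpl31), yet together they took between 0.0103 and 0.0129% of the counts per library. At 15 members another gene overlapped that held more than 2% of the member's counts, and values of members with copies or overlapping genes are uncertain. Reads that were left uncounted are not in the table, so these shares set no limit on that uncertainty.

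The part of the lung transcriptome taken by the ribosomal protein genes differed between genotypes by less than the spread of the libraries. Their share of all counts was 2.13, 2.15 and 2.25% in WT and 2.33, 2.17 and 2.14% in ISM1-/- lungs. The highest value belonged to ISM1-/- replicate 1, and the other 5 libraries of both genotypes were interspersed. The mean was 2.18% ± 0.068 (SD, n = 3) in WT and 2.21% ± 0.10 (SD, n = 3) in ISM1-/- lungs, a difference of 0.037 percentage points against a pooled SD of 0.086. Without ISM1-/- replicate 1 the difference was -0.021, and without WT replicate 3 it was 0.076. The large subunit accounted for 1.29% ± 0.038 in WT and 1.31% ± 0.059 in ISM1-/- lungs, and the small subunit for 0.886% ± 0.030 and 0.903% ± 0.042 (SD, n = 3 each). The ratio of summed FPKM of small-subunit to large-subunit genes was 0.684, 0.685 and 0.693 in WT and 0.690, 0.694 and 0.687 in ISM1-/- lungs, which overlapped (p = 0.4, two-sided exact permutation test over 10 splits, smallest possible p 0.1). In whole-lung RNA, fewer cells of a type and less RNA per cell cannot be told apart.

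**Figure D2:**
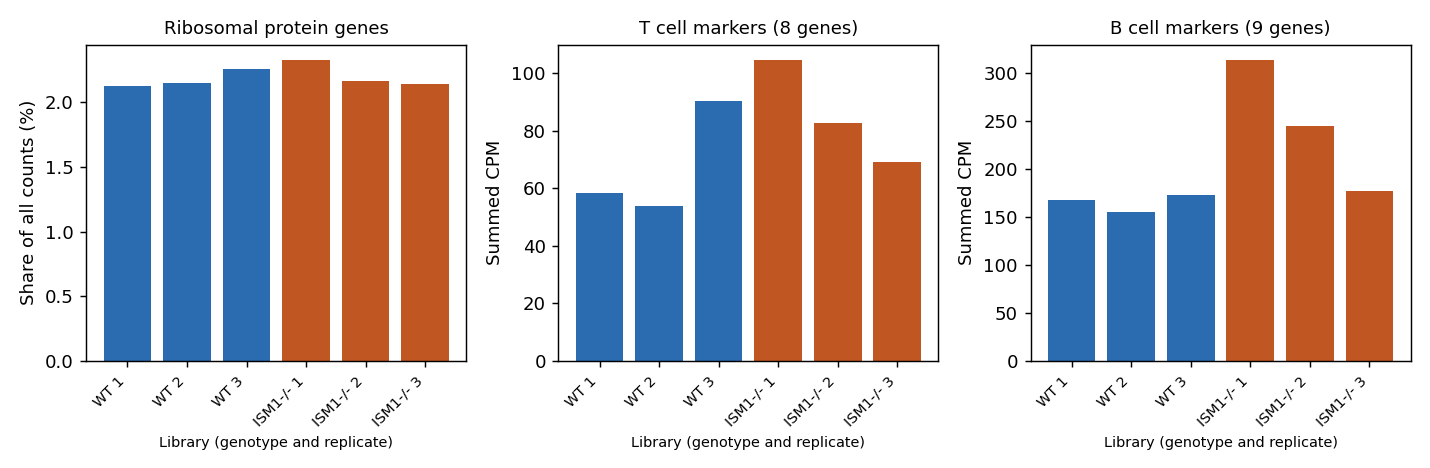
Share of all counts taken by the 81 ribosomal protein genes (left, percent) and summed CPM of 8 T cell markers (middle) and 9 B cell markers (right) in each library. ISM1-/- replicate 1 has the highest bar in all 3 panels, with 2.33% of counts on ribosomal protein genes.

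Immune cell markers also varied between these libraries. The 8 T cell markers (the Cd3 chains, Cd4, Cd8 chains, Lck and Cd2) summed to 58.4, 53.7 and 90.2 CPM in WT and to 105, 82.7 and 69.2 CPM in ISM1-/- lungs. ISM1-/- replicate 1 and WT replicate 3 were highest, as they were for the share of ribosomal protein genes. The 9 B cell markers summed to 168, 155 and 173 CPM in WT and to 314, 245 and 177 CPM in ISM1-/- lungs. Here ISM1-/- replicates 1 and 2 were highest. At an adjusted p under 0.1 in edgeR's quasi-likelihood test, 4 of the 9 were called higher in ISM1-/- lungs. Over all genes tested, 1.38% were called higher and 3.34% lower. None of the B cell or T cell markers was at 0 in every library, and 1 of the 8 T cell markers was called higher. Among the neutrophil markers 4 of 6 tested were called higher, with sums of 44.3, 46.1 and 58.6 CPM in WT and 129, 105 and 73.9 CPM in ISM1-/- lungs. Of 3 club cell markers 3 were called lower, and of 5 ciliated cell markers 3 were called lower. The 6 alveolar type 2 markers summed to between 20322 and 21923 CPM, and none of them passed the test. The part of these cell types in the level of the ribosomal protein genes was not tested.

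No ribosomal protein gene was called changed in ISM1-/- lungs. In edgeR's quasi-likelihood test at an adjusted p under 0.1, 0 of 81 members were higher and 0 were lower, whereas 1.38% of the 18689 genes tested were called higher and 3.34% lower, and 0.567% were called with at least a 2-fold change. DESeq2 also called 0 members. At an unadjusted p under 0.05, edgeR gave 1 member (Rpl19) and DESeq2 gave 2, against 15.8% of all genes in edgeR. Over the refits this number ranged from 0, as without WT replicate 1, to 7 without ISM1-/- replicate 2. It was 4 with the GC and length correction and 4 with the replicate block. The share over all genes is given for the main fit alone. All 81 members passed the filter of 0.5 CPM in at least 1 library. Rpl3l passed it through WT libraries alone, at 0.583, 0.241 and 0.698 CPM in WT and 0.470, 0.369 and 0.307 CPM in ISM1-/- lungs, so its lower value in ISM1-/- lungs is in part set by the filter. The smallest adjusted p among members was 0.297, and the smallest in any of 18 refits was 0.149, for Rps6. The labels number the libraries as replicates without naming the animals, and p-values measure only the spread between these libraries.

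The intervals of the differences were narrow for most members. The 95% confidence interval of the fold change lay within 1.5-fold in either direction for 79 members and within 2-fold for 80. Rpl3l, with 105 reads, had the widest interval, from -1.34 to 0.56 on the log2 scale, and changes within it were not detectable at this depth. Leaving aside Rpl3l, Rpl24, Rps10 and Rpl13a, which were chosen for exclusion after their low values were seen, log2 fold changes of 77 members ranged from -0.10 to 0.18. Their intervals reached from -0.33 to 0.38, or 0.794-fold to 1.30-fold.

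**Figure D3:**
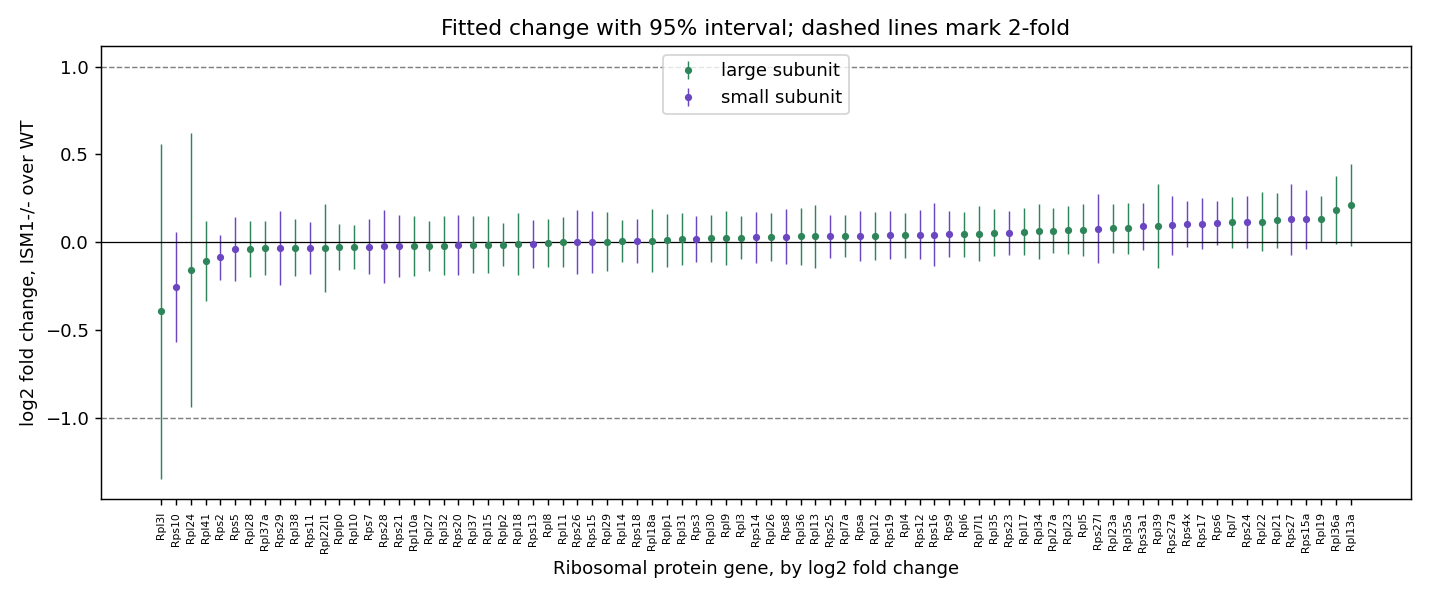
Fitted log2 fold change (ISM1-/- over WT) of each member with its 95% confidence interval, ordered by size and coloured by subunit, with dashed lines at a 2-fold change. Only Rpl3l reaches past a dashed line, and only the interval of Rpl19 lies wholly on 1 side of 0.

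The median log2 fold change was 0.028 over the 81 members and 0.0043 over all genes tested, with 54 members above and 27 below 0. Large-subunit genes had a median of 0.024 (32 above and 17 below 0) and small-subunit genes a median of 0.033 (22 above and 10 below 0). This median depended on single libraries. It was -0.010 without ISM1-/- replicate 1, where 38 members lay above 0, 0.053 without WT replicate 3, and 0.050 and 0.043 without ISM1-/- replicates 3 and 2. Without WT replicates 1 and 2 it was 0.014 and 0.019.

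Rpl19 encodes a large-subunit protein that takes part in a bridge to the small subunit. It measured 274, 279.6 and 302 CPM in WT and 317, 304 and 318 CPM in ISM1-/- lungs. All ISM1-/- values were above all WT values, by a narrow margin, and the fitted difference was 0.13 ± 0.058 (log2, adjusted p = 0.297 in edgeR's quasi-likelihood test). Rps6, the substrate of the S6 kinases downstream of mTOR, was at 305, 308 and 328 CPM in WT and at 337, 333 and 345 CPM in ISM1-/- lungs. The difference was 0.11 ± 0.055 (log2, adjusted p = 0.382). Rpl13a, also known for its role in translational silencing in the interferon response, was at 8.80, 10.01 and 10.1 CPM in WT and at 11.1, 10.2 and 12.1 CPM in ISM1-/- lungs, a difference of 0.21 ± 0.10 (log2, adjusted p = 0.374). Rps10, a small-subunit protein, was the member whose ISM1-/- values all lay below WT, with 4.27, 4.38 and 4.03 CPM in WT and 3.57, 3.92 and 3.15 CPM in ISM1-/- lungs (log2 fold change -0.25 ± 0.14, adjusted p = 0.432). These 4 members were the ones without overlap between genotypes, chosen after their values were seen, and non-overlap occurred in 21.6% of all genes tested.

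Other members at the ends of the range overlapped between the genotypes. Rpl36a was at 101, 98.6 and 106 CPM in WT and at 111, 104 and 133 CPM in ISM1-/- lungs (log2 fold change 0.18 ± 0.087, adjusted p = 0.346). The value of ISM1-/- replicate 3 stood above the rest. Rps15a and Rps27 both had a log2 fold change of 0.13 (adjusted p = 0.448 and 0.544), and in both ISM1-/- replicate 3 was the highest library. Rpl41, the smallest ribosomal protein, was at 347, 386 and 390.3 CPM in WT and at 389.7, 365 and 289 CPM in ISM1-/- lungs (log2 fold change -0.10, adjusted p = 0.690), and here ISM1-/- replicate 3 was the lowest. Rps2 was at 469, 478 and 477 CPM in WT and at 473, 439.7 and 430.5 CPM in ISM1-/- lungs (log2 fold change -0.08, adjusted p = 0.537). Rpl24 and Rpl3l, the members with the fewest reads, had log2 fold changes of -0.16 ± 0.35 and -0.39 ± 0.43.

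In several libraries, most members deviated from their own mean in the same direction. The median deviation of the members from their own mean over the 6 libraries was -0.052, -0.034 and 0.037 on the log2 scale in WT replicates 1 to 3, and 0.085, -0.027 and -0.019 in ISM1-/- replicates 1 to 3. In ISM1-/- replicate 1, 77 of 81 members were above their own mean, and in WT replicate 3 69 were, compared with 11 in WT replicate 1. Over 3240 pairs of members, the correlation across the 6 libraries averaged 0.34 and was above 0 in 73.8% of pairs. The points of each pair are the same 6 libraries with the same scaling. This correlation was not taken over other genes of like level, so it is not shown to be particular to the members. The SD of log2 CPM within a genotype was 0.080 at the median of 73 members above 100 CPM, and 0.077 over 2415 genes above that level.

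ISM1-/- replicate 3 differed in another way, by the base composition of the transcripts. Members were split at their median transcript GC content of 51.9%. In this library the 41 members with the lower GC content had a median deviation of 0.052, and the 40 with the higher GC content had -0.093. The correlation of deviation with GC content was -0.57 over the members and -0.47 over 15865 genes above 1 CPM. Over 2414 genes above 100 CPM, a level that most members reach, it was -0.64. In the other libraries the correlation over the members ranged from 0.071 to 0.39, and over the genes above 100 CPM from -0.026 to 0.38. Deviations are taken from the mean over the same 6 libraries, so the correlations of the libraries are not independent. ISM1-/- replicate 3 was the highest of the 6 libraries for 25 members and the lowest for 30. The median log2 fold change was 0.046 in the lower-GC members, of which 31 were above 0, and 0.0055 in the higher-GC members, of which 23 were above 0. Over all genes the corresponding medians were 0.027 and -0.023. With a correction for GC content and length the median of the members was 0.047, with 62 above 0 and 19 below, and 0 were called. The part of base composition in the single-gene values was not tested beyond this correction.

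**Figure D4:**
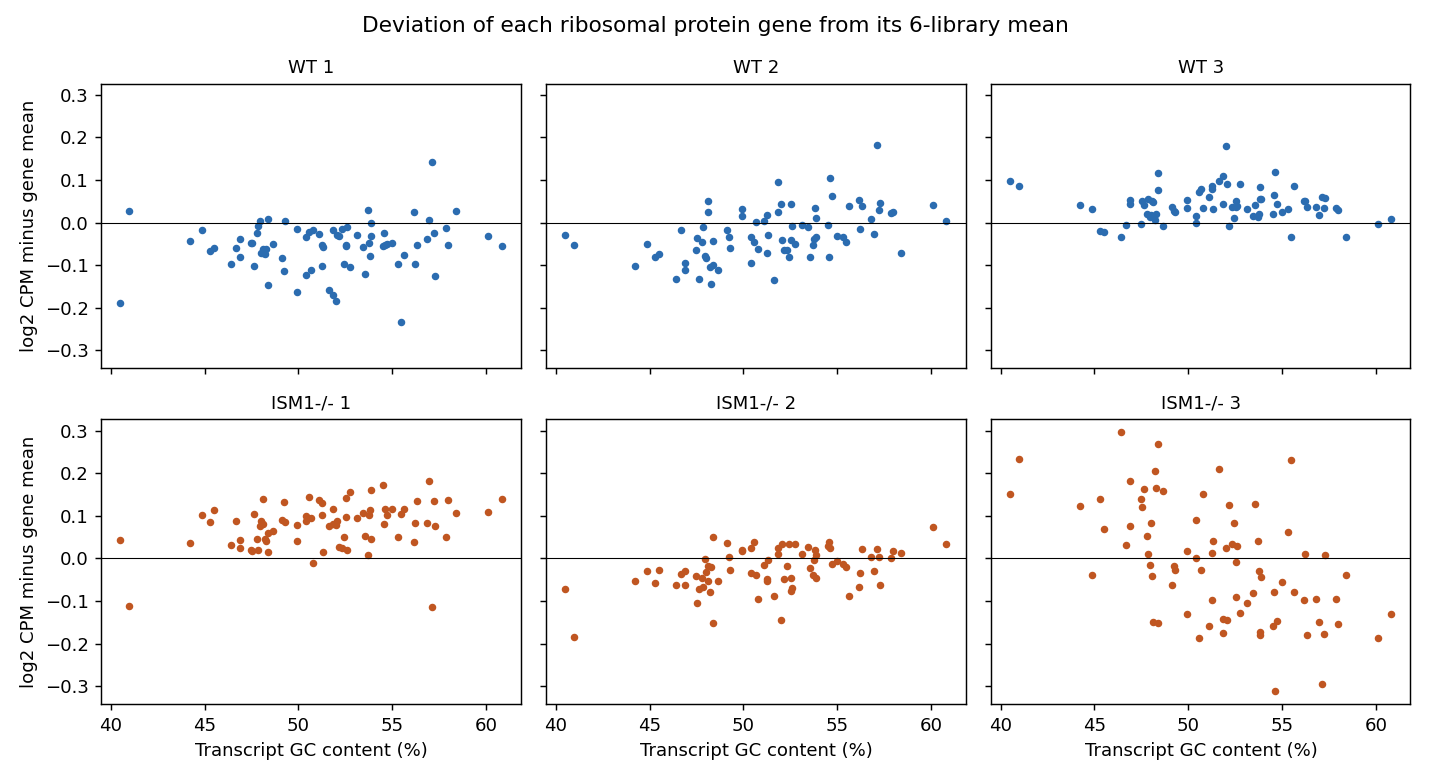
Deviation of log2 CPM from the gene's mean over 6 libraries against transcript GC content, for the 79 members with at least 600 summed reads, 1 panel per library and 1 point per gene. Points lie above 0 in ISM1-/- replicate 1 for nearly all genes, while those of ISM1-/- replicate 3 fall from above 0 at low GC content to below 0 at high GC content.

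Some ribosomal proteins have paralogs, and some of these can take the place of the core protein. The ratios below compare mRNA levels and do not show which protein a ribosome holds. Rpl22l1 reached 9.73, 9.39 and 9.59% of the CPM of Rpl22 in WT and 8.14, 8.43 and 9.25% in ISM1-/- lungs. The 3 ISM1-/- ratios were all below the 3 WT ratios, with a difference of -0.15 in the log2 ratio. The p was 0.1 in a two-sided exact permutation test over 10 splits, the smallest p the design allows. It was 0.4 after Benjamini-Hochberg adjustment over the 4 pairs whose paralog is a member. Ratios of paralogs outside the set were also tested and are not in this adjustment. Rpl22 was at 170.5, 167 and 180.2 CPM in WT and at 185, 169.9 and 207 CPM in ISM1-/- lungs, and Rpl22l1 was at 16.6, 15.7 and 17.3 CPM in WT and at 15.1, 14.3 and 19.1 CPM in ISM1-/- lungs. Neither gene passed the test (adjusted p = 0.503 and 0.934 in edgeR's quasi-likelihood test), and both overlapped between genotypes. Rpl22l1 has the lower GC content of the pair (41.0% against 48.2%). Rps27l, a p53-responsive paralog, reached 24.4, 26.8 and 24.9% of the CPM of Rps27 in WT and 24.4, 25.2 and 23.9% in ISM1-/- lungs, and these values overlapped (p = 0.4 in the exact permutation test). Rpl7l1 was at 10.997, 12.7 and 12.4% of Rpl7 in WT and at 11.4, 12.4 and 10.8% in ISM1-/- lungs (p = 0.6, exact permutation test). Rpl3l stayed between 0.0556 and 0.15% of Rpl3. Per length, mean FPKM of the paralog was 12.7% of the core gene for Rpl22l1, 26.1% for Rps27l, 9.40% for Rpl7l1 and 0.108% for Rpl3l.

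**Figure D5:**
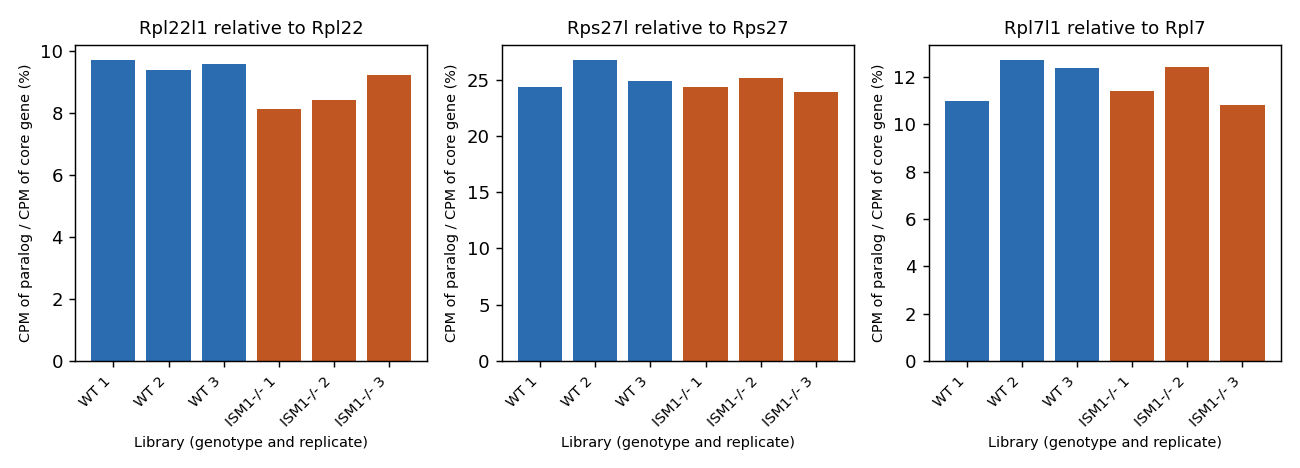
CPM of Rpl22l1, Rps27l and Rpl7l1 as a percent of the CPM of their core genes Rpl22, Rps27 and Rpl7 in each library. For Rpl22l1 the ISM1-/- bars (8.14 to 9.25%) all lie below the WT bars (9.39 to 9.73%), whereas the other pairs overlap.

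Some related genes lay outside the set. Rps4l, paired here with Rps4x, is listed in the table as a transcribed processed pseudogene. It was counted 1010, 1338 and 925 times in WT and 1214, 981 and 856 times in ISM1-/- lungs, and the genotypes overlapped. Rpl36al was counted between 10 and 18 times per library. Fau, which encodes a small-subunit protein as a fusion with a ubiquitin-like protein, was at 223 ± 7.70 CPM in WT and 227 ± 26.9 CPM in ISM1-/- lungs (SD, n = 3 each), and Rack1, the scaffold for kinase signalling on the small subunit, was at 378 ± 12.6 and 379 ± 35.1 CPM.

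Genes acting with the ribosome were likewise without calls. None of 19 genes of elongation and other TOP mRNAs was called, with a median log2 fold change of 0.041, and 0 of 22 initiation factors were called, with a median of 0.047. Of 41 ribosome biogenesis factors, which process ribosomal RNA and assemble the subunits, 0 were called, with a median of 0.0045. Among 17 regulators of mTOR and S6 kinase signalling 0 were called, with a median of -0.0046, and among 8 transcription factors of ribosomal protein promoters 0 were called, with a median of 0.070. The widest change among these factors was in Mycn, at 3.74, 2.46 and 1.96 CPM in WT and 4.42, 4.61 and 2.46 CPM in ISM1-/- lungs, which overlapped (log2 fold change 0.50, adjusted p = 0.446).

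Mitochondrial ribosomes, which translate the few mRNAs of the mitochondrial genome, were examined beside their cytosolic counterparts. Of 77 mitochondrial ribosomal protein genes tested 0 were called higher and 1 was called lower, with a median log2 fold change of -0.025. The called gene was Mrpl12, also known as a binding partner of the mitochondrial RNA polymerase, at 29.4, 30.4 and 31.6 CPM in WT and 26.6, 25.9 and 25.2 CPM in ISM1-/- lungs (log2 fold change -0.23 ± 0.063, adjusted p = 0.0966). Of 76 nuclear genes of oxidative phosphorylation 0 were called higher and 1 was called lower. This was Cox8b, the heart and brown fat isoform of a cytochrome c oxidase subunit, counted 182, 101 and 120 times in WT and 69, 51 and 68 times in ISM1-/- lungs (log2 fold change -1.13 ± 0.26, adjusted p = 0.0538). The median over these genes was -0.08, with 68 below 0 and 8 above, beside a median of 0.028 over the cytosolic ribosomal protein genes. Adipocyte markers were called lower in 6 of 6 cases, with sums of 119, 87.0 and 94.8 CPM in WT and 24.7, 28.9 and 55.3 CPM in ISM1-/- lungs. The 9 heart muscle markers summed to 1663, 567 and 669.7 CPM in WT and to 321, 437 and 599.7 CPM in ISM1-/- lungs, with 1 of them called lower. The part of either cell type in these values was not tested. Of 19 subunits of the 20S proteasome, which degrades proteins, 0 were called, with a median of -0.013. The list includes Psmb11, the subunit specific to the thymus, which was counted 2, 1 and 51 times in WT and 0 times in each ISM1-/- library (adjusted p = 0.214 in edgeR's quasi-likelihood test), so that nearly all of its reads came from WT replicate 3. It was named after its values were seen.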

How the data were processed

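RNA from perfused lungs of both genotypes (3 WT and 3 ISM1-/- libraries) was profiled by strand-specific, poly-A-selected, paired-end RNA-seq. According to the study's methods and the submitters' processing notes, the authors used CASAVA and aligned reads with STAR to the GRCm38 (mm10) genome. The counting program, its annotation and its handling of strand and of multiply mapped reads are not given in the sources used here. The authors deposited raw read counts per gene and, separately, FPKM values normalized to gene length and depth. No column of another sample was present (0 columns), and no fold change of the authors was used.

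Samples were grouped by their labelled genotype. Counts were analysed with edgeR 4.0.16 (R 4.3.3) by TMM scaling and the quasi-likelihood test without covariates, on the 18689 genes that reached 0.5 CPM in any library (1 or more). P-values were adjusted over all of these genes by Benjamini-Hochberg, and genes were called at an adjusted p under 0.1. FPKM values served for levels between genes. Alternatives comprised DESeq2 1.42.0, limma 3.58.1 on log2 FPKM, other scalings and filters, a GC and length correction (loess, span 0.3), a replicate block and leaving out each library. The scripts were tested on simulated data. Transcript GC content came from GENCODE transcripts of GRCm38, and start windows came from RefSeq (GRCm38.p6), matched by symbol, chromosome and strand for 61 of 81 members. Paralog ratios used a pseudocount of 0.5 CPM.

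The members, gene lists and tests were chosen with earlier results of these data known. Genes named were called members, the 5 highest and 5 lowest by log2 fold change and by mean FPKM, paralogs with their core genes, members at the count limit, Ism1, ribosomal proteins outside the nomenclature and called genes of the other lists. A gene covered by this rule is not reported here, and no summary of the ribosomal proteins outside the nomenclature is given. Members without overlap between genotypes, the start windows shown, and Mycn were chosen after their values were seen. The labels do not say whether same-numbered libraries were paired. Same-numbered libraries correlated at -0.040, 0.031 and 0.0010 in their deviations from the group means, and the main test took them as unpaired. Total counts of 37606133 to 42345042 per library set the precision. Log2 fold changes are ISM1-/- over WT throughout.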

Additional observations from a re-analysis of the deposited data

How the results depend on the processing

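No ribosomal protein gene was called higher or lower under any of the alternatives, including an adjusted p under 0.05. The block for the labelled replicate number left 0 members called, with a median log2 fold change of 0.027 over the members. Over all genes tested it called 399 higher and 706 lower, against 258 and 624 without the block. Whether the numbers pair the animals is not in the labels. Leaving out 1 library at a time, the number called stayed at 0, the median over members ranged from -0.010 to 0.053, and the difference in the share of counts ranged from -0.021 to 0.076 percentage points. As a share of summed FPKM, the difference was 0.17 percentage points (4.61% ± 0.13 in WT and 4.78% ± 0.22 in ISM1-/- lungs, SD, n = 3 each), against 0.037 as a share of counts. The cause was not tested.

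Most members changed sign in at least 1 refit, none of them called, including Rpl24 (-0.16 as reported) and Rpl41 (-0.10). Values are given below for the named genes only. With 1 library left out, log2 fold changes ranged from -0.039 to 0.0032 for Rpl10, -0.17 to 0.049 for Rpl22l1, -0.40 to 0.20 for Rpl24, -0.026 to 0.19 for Rpl39, -0.19 to 0.013 for Rpl41, -0.016 to 0.088 for Rpl7l1, -0.059 to 0.012 for Rplp0, -0.043 to 0.047 for Rplp1, -0.051 to 0.090 for Rps15, -0.058 to 0.11 for Fau and -0.056 to 0.076 for Rack1. With the GC and length correction Rplp0 was at 0.033 and Rps27l at -0.015. Rps15 was at -0.0012 with upper-quartile scaling, -0.0044 with library totals, -0.0042 with no filter, -0.0031 with the replicate block and -0.011 in limma with either pseudocount. Rack1 was at -0.0016 with library totals, -0.0011 with no filter and -0.0062 in limma with either pseudocount. Of the 81 members, 34 kept their sign in all 18 refits. Members with few reads (Rpl3l and Rpl24) are limited by depth.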
